A study of Mus musculus with 8 samples.

Results

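Nova1 and Nova2 encode the paralogous Nova proteins, and their signal was followed along every probe set that names one of them alone: 8 for Nova1 and 16 for Nova2, or 24 of the 391597 probe sets on the array. These 2 genes stand among 12921 that single-gene probe sets name. Cortical total RNA of CD1 mice, taken at postnatal day 10, was hybridised to Affymetrix mouse exon arrays, on which each gene is read by several short probe sets. The groups were 4 wild type and 4 Nova2 knockout (Nova2 KO) mice of that strain and age, each with its own array. Unless stated otherwise, p-values thus measure the spread between mice. Neither the deleted stretch of Nova2 nor the kinship of the mice is given in the sources used here.

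Nova proteins are neuronal RNA-binding proteins that fold into KH domains and bind clusters of the tetranucleotide YCAY (Y is C or U) in pre-mRNA. The position of a cluster relative to an alternative exon governs whether the exon is included or skipped, and many of the exons regulated in this way lie in genes of the synapse. In the mouse brain Nova2 is the paralog known for the neocortex and hippocampus, whereas Nova1 is known mainly for the hindbrain, hypothalamus and spinal cord. Nova1 is itself a target of Nova proteins, through an alternative exon of its own transcript. In the assembly GRCm38.p6, used here for names only, Nova1 lies on chromosome 12 and Nova2 on chromosome 7. Which exon each probe set covers was not analysed here, so probe sets are given by their platform ID.

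All 24 probe sets passed the filter on low values, which asked for a mean over the 8 arrays above 5.86 log2, the 25th percentile of the whole array. None of their 192 values lay at the floor of the scale, about 4 log2, and 1 value, that of Nova1 probe set 4805971 on wild type 4, lay under 5.86. Array medians ran from 7.02 to 7.37 log2, with the arrays numbered 4 lowest in both groups. Over all genes the median difference between Nova2 KO and wild type was 0.022 log2. Each group held 2 arrays with high Xist (wild type 1 and 4, Nova2 KO 2 and 4) and 2 with low Xist, an RNA made from the silenced X chromosome. Differences below are Nova2 KO minus wild type on the log2 scale, and adjusted p-values are from limma over all features of a kind, with a threshold of 0.05.

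Loss of Nova2 was checked first along the Nova2 probe sets. One of the 16, probe set 5294108, was far lower in Nova2 KO, while the other 15 differed by -0.29 to 0.70 log2, with 4414499 the highest of them. On the 4 wild type arrays probe set 5294108 read 8.87, 8.65, 8.53 and 8.66 log2. On the 4 Nova2 KO arrays it read 6.28, 7.17, 7.26 and 6.73 log2. Every Nova2 KO array lay well below every wild type array, and the Nova2 KO arrays were the more spread, with an SD of 0.45 against 0.14 log2 (n = 4 each). The difference was -1.82 log2 (SE 0.22, 95% interval -2.31 to -1.33), so wild type was 3.54-fold above Nova2 KO. Among the 293697 probe sets tested it ranked at place 44 by p, with a limma adjusted p of 0.0786, above the threshold. Across the array as a whole, 0.00681% of probe sets passed, and 2.04% were lower on every Nova2 KO array than on any wild type array.

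The call for probe set 5294108 depended on the scaling of the arrays and on the filter. The limma adjusted p was 0.0308 after quantile normalization, 0.0366 after median centring, 0.0264 with the array median as a covariate and 0.0221 with the filter at the 50th percentile, and it lay above the threshold in the other settings, the highest being 0.971 within the 4 arrays of high Xist. The size of the difference lay between -1.98 and -1.63 log2 in every setting run. Within the arrays of high Xist and within those of low Xist it was -1.82 log2 each, a check added after the data had been seen.

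**Figure D1:**
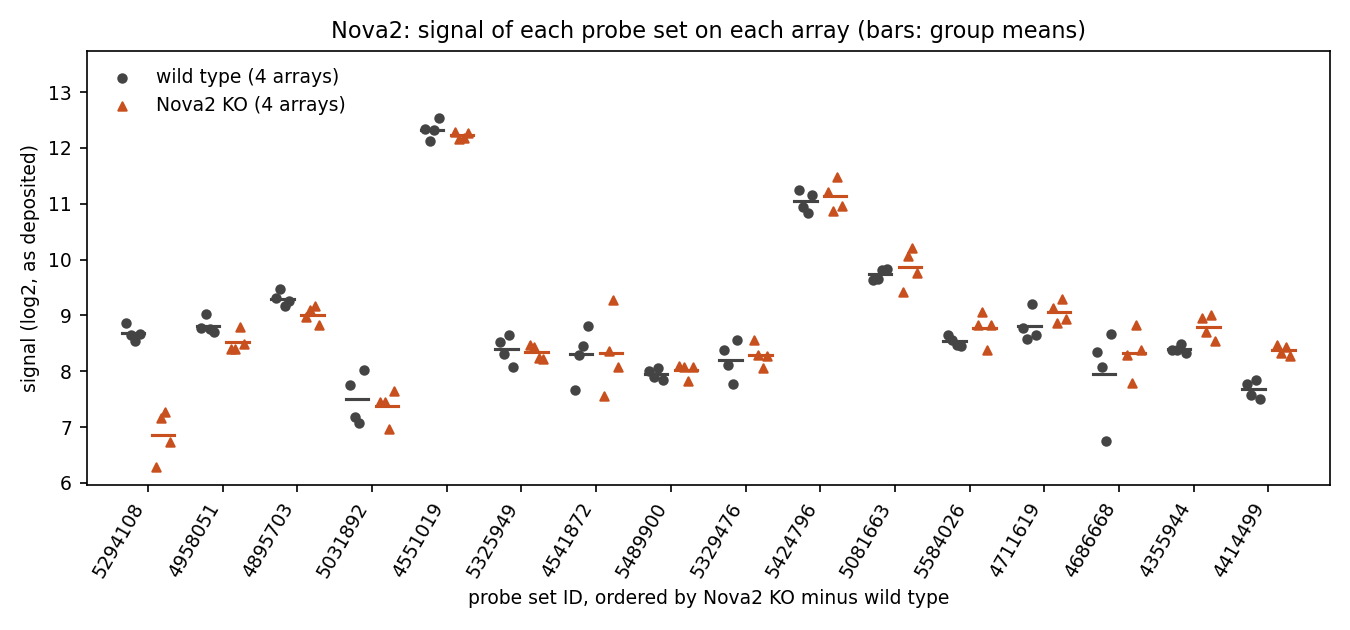
Signal (log2, vertical axis) of the 16 Nova2 probe sets (horizontal axis, ordered by Nova2 KO minus wild type) on 4 wild type arrays (circles) and 4 Nova2 KO arrays (triangles), with bars at the group means. Probe set 5294108 sits at 6.28 to 7.26 log2 in Nova2 KO against 8.53 to 8.87 log2 in wild type, while 13 of the 16 overlap between the groups.

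A pair of Nova2 probe sets was higher in Nova2 KO on every array. Probe set 4414499 read 7.78, 7.57, 7.84 and 7.49 log2 on the wild type arrays, against 8.46, 8.32, 8.44 and 8.27 log2 on the Nova2 KO arrays. Its difference was 0.70 log2 (SE 0.13, 95% interval 0.41 to 0.99), or 1.62-fold, with a limma adjusted p of 0.321. Probe set 4355944 read 8.39, 8.39, 8.49 and 8.33 log2 on the wild type arrays, against 8.95, 8.70, 9.01 and 8.54 log2 on the Nova2 KO arrays. That is a difference of 0.40 log2 (SE 0.14, limma adjusted p = 0.700). Neither passed over all probe sets, of which 3.05% were likewise higher on every Nova2 KO array. Within the arrays of high Xist the differences of 4414499 and 4355944 were 0.66 and 0.26 log2, and within those of low Xist 0.74 and 0.54 log2.

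The remaining 13 Nova2 probe sets overlapped between the groups, with differences from -0.29 to 0.37 log2 and limma adjusted p-values from 0.755 to 0.997. The smallest SE of the 13 was 0.12 log2, that of 5489900, with a 95% interval from -0.21 to 0.34 log2. Probe set 4551019 was at 12.33 ± 0.17 log2 in wild type, against 12.22 ± 0.064 log2 in Nova2 KO (mean ± SD, n = 4), a difference of -0.10 log2 with a 95% interval from -0.39 to 0.18. For probe set 5424796 the means were 11.04 ± 0.19 and 11.13 ± 0.27 log2, and the interval ran from -0.29 to 0.47 log2. The lowest of the 13 were 4958051 (-0.29 log2, 95% interval -0.61 to 0.024) and 4895703 (-0.29 log2, 95% interval -0.58 to 0.011), whose groups met only on Nova2 KO 3. Least precise were 4686668, at 6.74 log2 on wild type 3 against 8.08 to 8.67 log2 on the other wild type arrays, and 4541872, which ran from 7.55 to 9.27 log2 within Nova2 KO.

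A 2-fold lower signal, -1 log2, lay outside the unadjusted 95% interval of all 15 Nova2 probe sets other than 5294108. The lowest bound among them was -0.80 log2, that of 4541872. The gene value, the median over the probe sets of a gene on an array, was 8.58, 8.48, 8.51 and 8.66 log2 for Nova2 on the wild type arrays, against 8.51, 8.42, 8.81 and 8.44 log2 on the Nova2 KO arrays. Nova2 KO 3 lay above the wild type range, and the other Nova2 KO arrays lay within it or just below it. The Nova2 gene value differed by -0.016 log2 (SE 0.11, 95% interval -0.25 to 0.22, limma adjusted p = 0.975), and the groups overlapped. By gene value, 2.5% of all genes lay lower on every Nova2 KO array.

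Set against the rest of its gene, probe set 5294108 had the largest difference of the 16. The exon index used for this is the probe set's log2 signal on an array less its gene's value there. For 5294108 it was 0.29, 0.17, 0.020 and 0.0034 log2 on the wild type arrays, against -2.23, -1.25, -1.54 and -1.71 log2 on the Nova2 KO arrays, again without overlap, as for 2.05% of all probe sets in that direction. This index differed by -1.81 log2 (SE 0.19, limma adjusted p = 0.0538), place 27 by p of 195014 probe sets with an index. On wild type 3 the Nova2 gene value lay midway between 5294108 and 4355944, and on wild type 4 midway between 5294108 and 4711619. On these arrays the index of 5294108 is set by the gap to that other probe set. In the index of all probe sets 0.0133% passed. By gene, with the Simes p over its probe sets, the adjusted p of Nova2 was 0.0634, and 0.161% of genes passed. With the mean over probe sets as the gene value it was 0.0201, with quantile normalization 0.0322 and with the filter at the 50th percentile 0.0340. In the other settings it lay above the threshold, at 0.0569 to 0.322 with single arrays left out and at most 0.969, within the arrays of high Xist.

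The indices of 4414499 and 4355944 were higher in Nova2 KO by 0.72 log2 (SE 0.13) and 0.42 log2 (SE 0.11), with limma adjusted p-values of 0.373 and 0.593. Their groups did not overlap in the index either, which held for 2.07% of all probe sets in that direction. Of the other Nova2 indices, 4958051 and 4895703 were lower by 0.28 and 0.27 log2 in size, at unadjusted limma p-values of 0.0455 and 0.0499. On Nova2 KO 2, 3 and 4 the Nova2 gene value lay midway between 4958051 and another probe set. Its index there (-0.018, -0.014 and 0.056 log2) is set by the gap between that pair. The spread of this index is thus partly fixed by its making, and the signal of 4958051 had an unadjusted limma p of 0.0664. In all, 5 of the 16 Nova2 indices had an unadjusted p under 0.05, beside 6.76% of all indices. With diffSplice of limma, which pools the spread over the probe sets of a gene, 5294108 was the only 1 of the 24 that passed (-1.92 log2, adjusted p = 1.12e-09), and 0.259% of all probe sets passed that test. The diffSplice p treats probe sets read on the same mice as separate readings, so it does not measure the spread between mice. In the limma fit of the index, where mice are the units, the adjusted p of 5294108 was 0.0538.

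Nova1, the remaining Nova paralog, was read by 8 probe sets, and the mean of all 8 was higher in Nova2 KO, by 0.068 to 0.54 log2. None of the 8 passed over all probe sets (limma adjusted p from 0.600 to 0.973), and 5 had an unadjusted p under 0.05, against 6.68% of all probe sets. In 4 of the 8 every Nova2 KO array lay above every wild type array, beside 3.05% over the whole array. The probe sets of a gene read the same RNA on the same arrays and are not independent of each other.

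Differences were largest in 5 of the Nova1 probe sets. Probe set 4931584 read 7.94, 7.96, 8.43 and 7.86 log2 on the wild type arrays, against 8.79, 8.54, 8.65 and 8.39 log2 on the Nova2 KO arrays. It differed by 0.54 log2 (SE 0.16, limma adjusted p = 0.656), and the groups met because wild type 3 lay just above Nova2 KO 4. Probe set 4340185 read 9.92, 10.04, 10.25 and 10.03 log2 on the wild type arrays, against 10.48, 10.47, 10.66 and 10.48 log2 on the Nova2 KO arrays, without overlap, and differed by 0.46 log2 (SE 0.12, adjusted p = 0.600). Probe sets 5140760 (0.46 log2, SE 0.15), 4412885 (0.42 log2, SE 0.14) and 4809410 (0.31 log2, SE 0.13) lay close behind, the last 2 without overlap.

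Differences were small in the other 3 Nova1 probe sets. Probe set 5138334 was the tightest of the 8, at 9.38 ± 0.033 log2 in wild type, against 9.50 ± 0.055 log2 in Nova2 KO (SD, n = 4), and its groups did not overlap although they differed by only 0.12 log2 (95% interval -0.12 to 0.36). Probe set 4429841 differed by 0.068 log2 (95% interval -0.33 to 0.47). Probe set 4805971 read 6.17, 6.09, 6.70 and 5.31 log2 on the wild type arrays, against 6.36, 6.46, 5.89 and 5.97 log2 on the Nova2 KO arrays, a difference of 0.10 log2 with an interval from -0.52 to 0.73. The intervals of all 3 included the 0.31 log2 of 4809410.

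**Figure D2:**
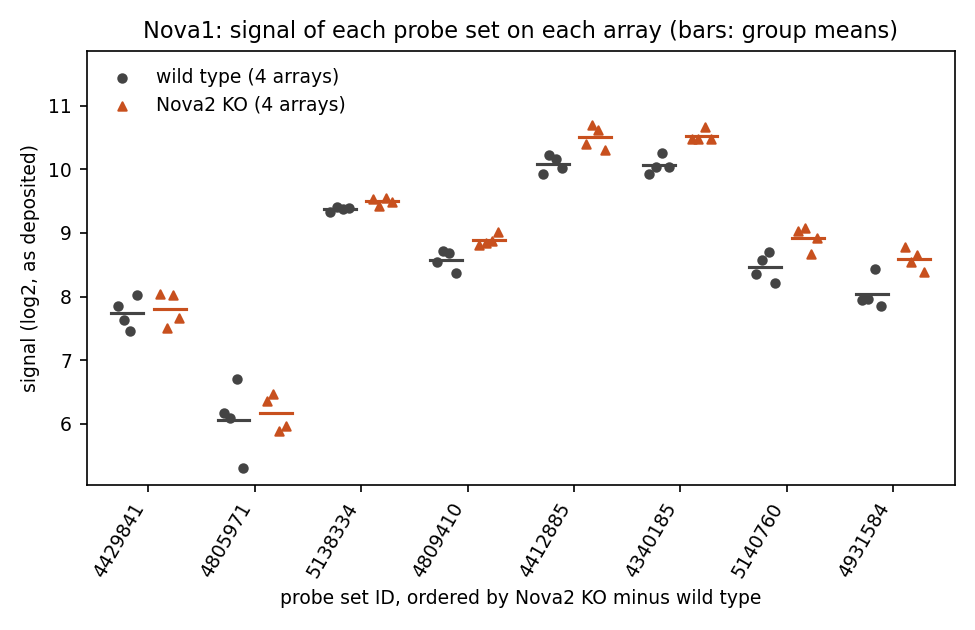
Signal (log2, vertical axis) of the 8 Nova1 probe sets (horizontal axis, ordered by Nova2 KO minus wild type) on 4 wild type arrays (circles) and 4 Nova2 KO arrays (triangles), with bars at the group means. All 8 Nova2 KO means lie above the wild type means, and the groups are apart in 4 probe sets, 5138334, 4809410, 4412885 and 4340185.

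Whether single Nova1 probe sets moved apart from the gene was examined with the same exon index. On every array the Nova1 gene value lay midway between probe sets 4809410 and 5140760. Their indices are therefore mirror images, cannot show both moving away from the gene, and are not separate tests. Index differences ran from -0.32 log2 (4429841) to 0.16 log2 (4931584), all 8 overlapped between the groups, and no unadjusted p was under 0.05. The lowest was that of 5138334 (-0.27 log2, 95% interval -0.54 to 0.0043, limma adjusted p = 0.741). The Simes adjusted p of Nova1 was 0.839, and diffSplice called none of its probe sets. A difference in the use of a Nova1 exon was thus not detectable in these 8 arrays, and no probe set is known here to cover the Nova-regulated exon of Nova1.

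**Figure D3:**
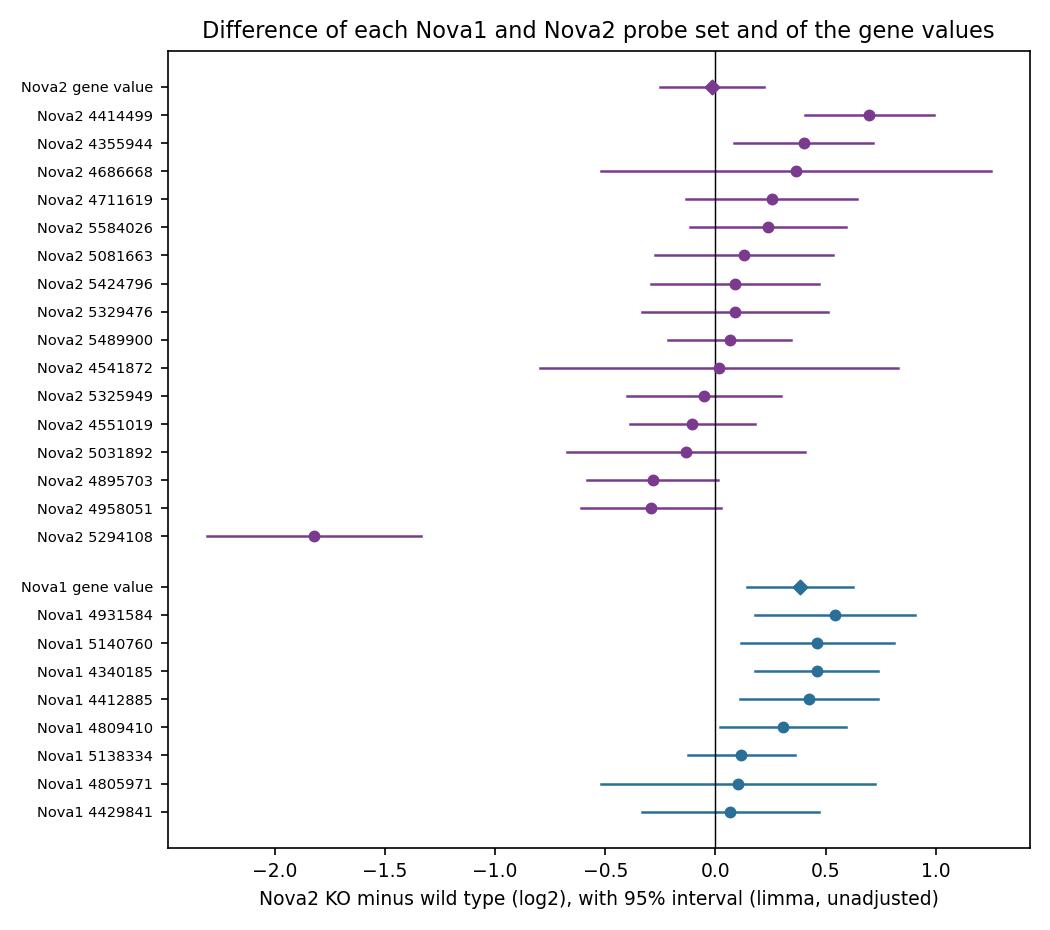
Nova2 KO minus wild type (log2, horizontal axis) with unadjusted 95% intervals from limma for 8 Nova1 and 16 Nova2 probe sets (circles) and for the gene values (diamonds). Probe set 5294108 of Nova2 stands alone at -1.82 log2, the Nova2 gene value lies at -0.016 log2, and the Nova1 gene value lies at 0.38 log2.

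On the gene level, Nova1 was 8.45, 8.64, 8.69 and 8.29 log2 on the wild type arrays, against 8.92, 8.96, 8.77 and 8.97 log2 on the Nova2 KO arrays. On every array the Nova1 gene value lay midway between probe sets 4809410 and 5140760, which differed by 0.31 and 0.46 log2. The groups of the gene value did not overlap, and Nova2 KO 3 lay nearest to the wild type arrays. The difference was 0.38 log2, or 1.31-fold (SE 0.11, 95% interval 0.14 to 0.63), with a limma adjusted p of 0.251 over 11992 genes. At the gene level 0.208% of genes passed, 11.6% had an unadjusted p under 0.05, as Nova1 had (0.00439), and 5.06% were higher on every Nova2 KO array. Nova1 thus did not pass, and in the other settings tried its difference ran from 0.18 to 0.59 log2 with adjusted p-values from 0.0928 to 0.830. Those extremes were the arrays split by Xist: 0.59 log2 within the 4 arrays with high Xist and 0.18 log2 within the 4 with low Xist. Whether the 2 values differ was not tested.

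The paralogs were then set against each other, as the Nova1 gene value minus the Nova2 gene value of the same array. Levels of different probe sets have no common scale, so only the change of this contrast between genotypes is read. The contrast was -0.14, 0.17, 0.18 and -0.36 log2 on the wild type arrays, against 0.41, 0.54, -0.039 and 0.53 log2 on the Nova2 KO arrays. Nova2 KO 3 lay within the wild type range and the other Nova2 KO arrays above it. The mean shift was 0.40 log2, from -0.039 ± 0.26 to 0.36 ± 0.27 log2 (SD, n = 4), with a two-sided exact permutation p of 0.0857 over 70 splits, where 0.0286 is the smallest p the design allows. With single arrays left out it ran from 0.29 log2 (without wild type 4) to 0.53 log2 (without Nova2 KO 3), with exact permutation p-values from 0.0286, the smallest possible and that without Nova2 KO 3, to 0.171. It was 0.79 log2 within the arrays with high Xist and 0.013 log2 within those with low Xist, and the difference between these was not tested.

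**Figure D4:**
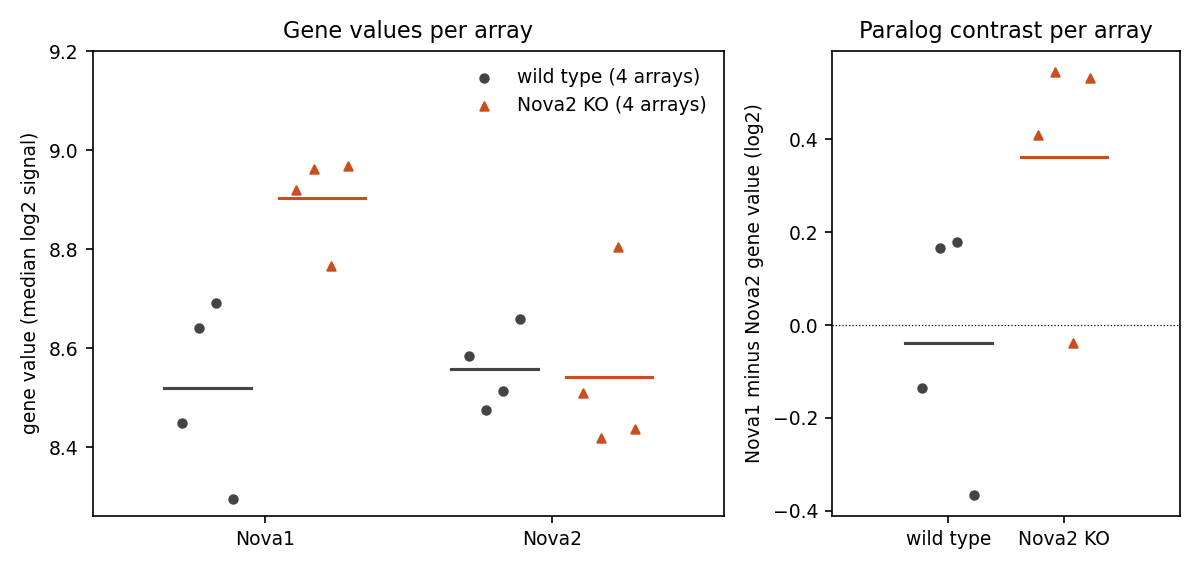
Left, gene values of Nova1 and Nova2 (median log2 signal over their probe sets) on 4 wild type arrays (circles) and 4 Nova2 KO arrays (triangles), with bars at the group means. Right, the Nova1 minus Nova2 contrast of each array (log2). The Nova1 groups do not overlap, the Nova2 groups do, and the contrast of Nova2 KO 3 (-0.039 log2) lies among the wild type arrays.

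Marker genes of cell types and regions were read as well. In whole tissue they cannot tell fewer cells of a type from less RNA per cell, so cell make-up itself was not measured. Of 6 measured markers of cortical neurons 5 were higher, among them the transcription factor genes Neurod6 (0.29 log2) and Neurod2 (0.18 log2), while the vesicular glutamate transporter gene Slc17a7 was at -0.19 log2. Their median was 0.14 log2, and the mean over the markers ran from 11.15 to 11.29 log2 on wild type and from 11.23 to 11.44 log2 on Nova2 KO arrays. Emx1 and Rbfox3 were among the listed genes with no gene value here. Deep-layer markers were higher in 8 of 9 (median 0.23 log2), led by Foxp2 (0.33 log2) and Fezf2 (0.29 log2), and their mean ran from 8.95 to 9.07 log2 in wild type and from 9.08 to 9.28 log2 in Nova2 KO. Upper-layer and interneuron markers had medians of 0.089 log2 (7 genes) and 0.10 log2 (12 genes). No gene of these 4 lists passed.

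Markers of oligodendrocytes differed in the other direction: 11 of 12 were lower (median -0.36 log2), with Mal (-1.03 log2, limma adjusted p = 0.0251) and Mog (-0.77 log2, adjusted p = 0.0301) past the threshold, beside 0.208% of all genes past it and 55.4% of all genes above 0. Their mean ran from 9.16 to 9.29 log2 in wild type and from 8.76 to 8.99 log2 in Nova2 KO. Of these 12 markers 8 had an unadjusted limma p under 0.05, beside 11.6% of all genes. The others differed little and overlapped between the groups: Olig1 (-0.11 log2), Pdgfra (-0.10 log2), Olig2 (-0.0075 log2) and Sox10 (0.046 log2). Medians of the markers of astrocytes (7 genes), microglia (6), vessels and meninges (7) and choroid plexus (2) were -0.046, -0.20, -0.11 and 0.0040 log2, and none passed. Markers of regions outside the cortex, only some of them known for Nova1, were read too. Of 9 measured markers of hypothalamus, thalamus, midbrain and brainstem 1 was higher, and the median was -0.11 log2. That marker was Th, which encodes tyrosine hydroxylase, at 0.59 log2 (limma adjusted p = 0.0906). Striatal (5 genes) and hippocampal (3 genes) markers had medians of 0.026 and -0.16 log2. Among them, the peptide precursor genes Penk (-0.47 log2) and Tac1 (0.51 log2) and the hippocampal marker Wfs1 (-0.45 log2) did not overlap between the groups, and none passed (limma adjusted p = 0.223, 0.236 and 0.185). Markers of other lists were apart too, among them Foxp2, Fezf2 and Th above wild type and Mal and Mog below it. By gene value, 5.06% of all genes lay higher and 2.5% lower on every Nova2 KO array. The part of these shifts in the Nova1 difference was not tested.

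Other regulators of neuronal splicing were described from a list of 25, of which 23 were measured. None passed, 16 were higher and 7 lower in Nova2 KO, and their median was 0.069 log2, beside 55.4% of all genes above 0 and a median of 0.022 log2 over all genes. Without wild type 4 the median of the list was 0.014 log2. Ptbp2, the neuronal polypyrimidine tract-binding protein that represses many neuronal exons, had the lowest p. It read 9.74, 9.83, 9.58 and 9.47 log2 on the wild type arrays, against 10.09, 10.16, 10.05 and 10.32 log2 on the Nova2 KO arrays. Its difference was 0.50 log2 (SE 0.11, limma adjusted p = 0.138). Ptbp2 was followed by Khdrbs3, a STAR-family KH protein (0.27 log2, adjusted p = 0.339), Elavl4, which encodes the neuronal Hu protein HuD (0.26 log2, adjusted p = 0.425) and Rbfox2, a binder of the motif UGCAUG (0.18 log2, adjusted p = 0.497). Ptbp2 and Khdrbs3 did not overlap between the groups, beside 5.06% of all genes higher on every Nova2 KO array. With the mean over probe sets as the gene value, Ptbp2 differed by 0.26 log2 and Nova1 by 0.31 log2, so their order depended on the summary.

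Genes that share the KH fold with the Nova proteins were described in the same way. Of 31 listed genes 25 were measured, none passed, 20 were higher and 5 lower, and the median was 0.089 log2. Khdrbs1, Khdrbs2, Khdrbs3 and Qk stood on both lists. The lowest p belonged to Fmr1 (0.25 log2, limma adjusted p = 0.304) and Fxr1 (0.26 log2, adjusted p = 0.329), which encode the fragile X protein and its paralog, followed by Khdrbs3 and Pcbp2, a poly(C)-binding protein (0.24 log2, adjusted p = 0.409). Among these, Fmr1, Fxr1 and Khdrbs3 did not overlap between the groups, beside 5.06% of all genes higher on every Nova2 KO array. The whole list ran from -0.069 to 0.27 log2, below the Nova1 value, whereas with the mean over probe sets Fxr1 (0.33 log2) lay above Nova1 (0.31 log2).

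**Figure D5:**
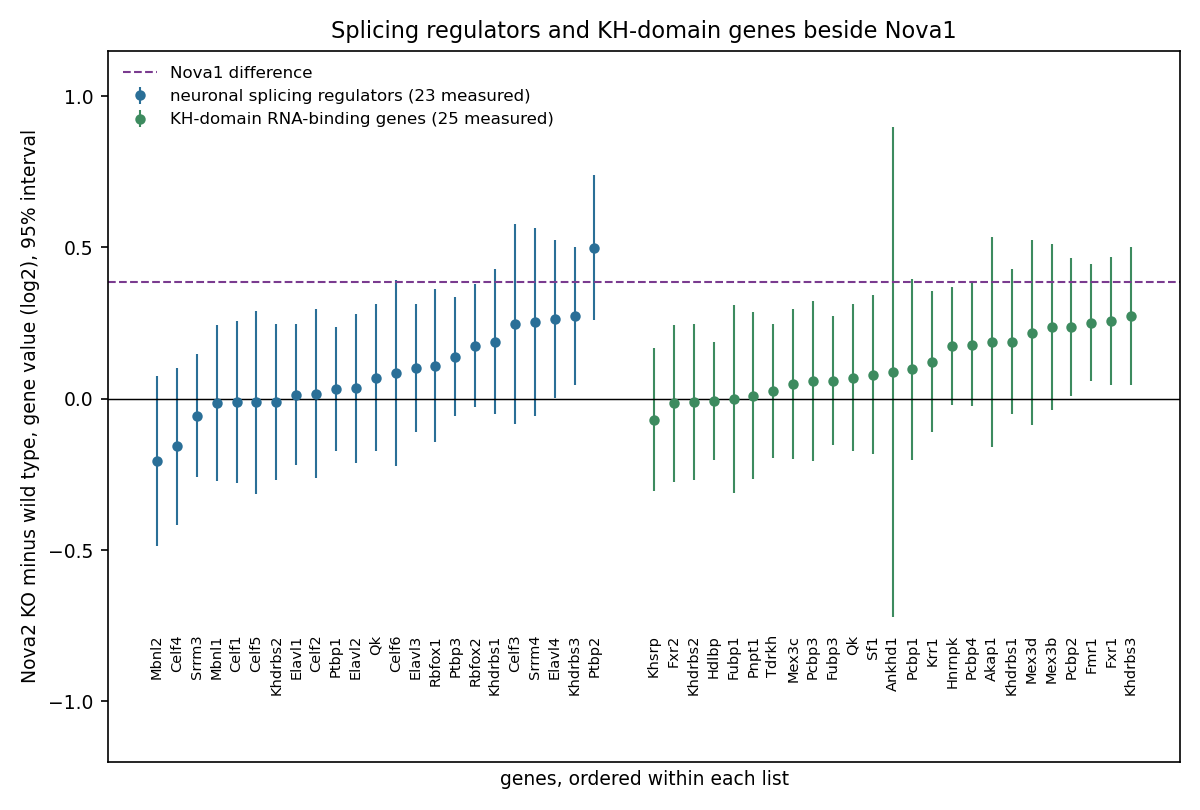
Nova2 KO minus wild type of the gene value (log2, vertical axis) with unadjusted 95% intervals for 23 neuronal splicing regulators (left) and 25 KH-domain RNA-binding genes (right), each list in ascending order. The dashed line marks the Nova1 difference of 0.38 log2, which the point of Ptbp2 (0.50 log2) exceeds.

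Known targets were taken from a list of 38 genes with a reported Nova-dependent exon, Nova1 among them. The list was drawn up with earlier results of these arrays known, so its count is no independent evidence. Of 34 measured genes 8 passed for exon usage by the Simes p, beside 0.161% of all genes. Probe sets of Gphn, Ank3, Grin1, Ank2 and Chl1, genes of synaptic and axonal proteins, gained signal relative to their gene, and those of Aplp2, Sptan1 and Kcnma1 lost it. Each gene is given here by its probe set of lowest p. The smallest of these 8 index differences was that of Aplp2, -1.15 log2 (SE 0.079), and the largest that of Chl1, 2.89 log2 (SE 0.20). These sizes are those of genes picked for having passed. Among the listed genes that did not pass, the index difference smallest in size was -0.20 log2 and the largest -1.32 log2. Nova1 was among these, at -0.27 log2, with at most 0.32 log2 in size for any of its probe sets. Gene values of 3 of the 34 passed, beside 0.208% of all genes: Map4 (0.61 log2) higher and Slc4a3 (-1.01 log2) and Rasgrf1 (-0.66 log2) lower, while the fourth by p, the kinase gene Mapk8, was at 0.44 log2 (limma adjusted p = 0.195). The median gene difference of the list was 0.0063 log2. The count for exon usage was 0 when any of wild type 1, wild type 3 or Nova2 KO 3 was left out, or both arrays numbered 4 together, 4 without wild type 4, and 2 without wild type 2, Nova2 KO 1 or Nova2 KO 4. The count of gene values past the threshold was 1 without wild type 1, 2 or 3, without Nova2 KO 1 or 4, without both arrays numbered 4, or after median centring.

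Genes that varied most like the Nova genes from mouse to mouse were found from gene values after the group means were taken off, with the Pearson correlation over the 8 arrays as the measure of likeness. These are the 5 highest of 11992 genes each and a description only, since with so few arrays many genes reach high values. For Nova1 they were Sox4 (0.99), Lars (0.98), Appl1 (0.98), Apc (0.98) and Tspan9 (0.98). For Nova2 they were Rere (0.996), Pcgf2 (0.99), Rnf208 (0.98), Rbm38 (0.98) and Lasp1 (0.97). For probe set 5294108 they were 4930593A02Rik (0.97), Hebp1 (0.97), Vps37d (0.91), Mapk15 (0.91) and Cmss1 (0.91). The 3 sets of 5 shared no gene, and none of the 15 genes passed between genotypes.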

How the data were processed

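The deposited values are log2 signals, 1 per probe set and array. Per the submitters' processing notes the authors used PLIER, which fits a model to the individual probes to give 1 value per set. No version, background correction, between-array normalization or genome build could be taken from the sources used here. The lowest value of every array, about 4 log2, is what an offset of 16 before the logarithm would give, and such an offset shrinks differences of dim probe sets. Gene names came from the platform annotation, in which 228454 probe sets name 1 gene, with symbols updated through the GRCm38.p6 gene table.

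Probe sets with a mean above the 25th percentile were kept. Gene values are medians over kept probe sets (genes with 3 or more), and exon indices were formed for genes with 5 or more. Each measure was fitted with lmFit and eBayes of limma 3.58.1 in R 4.3.3, tested on simulated data, two-sided, with Benjamini-Hochberg adjustment over all features. Plots used matplotlib 3.10.9. The numbers in the array titles were not used to pair animals. No label says what they share, and the arrays numbered 3 correlated at only 0.024 in their deviations from the group means. The choice thus drew on these same data. Alternatives were other filters, scalings, an offset of 1, means over probe sets, the replicate block, diffSplice and arrays left out. The members and lists were chosen with earlier results of these data known. The text names Nova1, Nova2 and their probe sets, list members past the threshold, up to 4 with the lowest p per list, and the 5 genes most alike. Marker lists are instead given by counts, with a few members. Precision is limited by the number of arrays, which carry no read depth.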

Additional observations from a re-analysis of the deposited data

Results flagged for a closer look

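Among 116 sets of 4 values tested for a single array standing apart from its group, 4 did, where chance gives about 1 in 20. All 4 concern Nova2 KO 3. For Nova1 probe set 4340185 its signal was 10.66 log2, above the 10.47 to 10.48 log2 of the other Nova2 KO arrays, and its index was 1.90 log2 against 1.51 to 1.56. For Nova2 probe set 5489900 its signal was 7.82 log2, below the 8.08 to 8.10 log2 of the others, and its index was -0.99 log2 against -0.41 to -0.34. Signal and index share the same reading, so these are 2 observations rather than 4.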

How the results depend on the processing

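The count of called Nova2 probe sets was 0 as reported and 1 (5294108) with the filter at the 50th percentile, quantile normalization, median centring or the array median as covariate. For exon usage the count over both genes was 1 with the 50th percentile filter, quantile normalization, the mean over probe sets or diffSplice, and 0 to 1 when single arrays were left out (1 without Nova2 KO 1, where the index of 5294108 was -1.62 log2 and its limma adjusted p was 0.0455). Counts of called Nova1 probe sets, gene values of both paralogs, splicing regulators and KH-domain genes were 0 in every setting run. The contrast ran from 0.29 to 0.53 log2 with single arrays left out. With the replicate block it was 0.40 log2 (exact permutation p = 0.25). Swaps within same-numbered pairs are too few here to give a p under 0.05. The block gave 2 genes with a Nova-dependent exon and otherwise changed none of these counts. Deviations of same-numbered arrays correlated at 0.14, 0.33, 0.024 and 0.57 (differently numbered ones at -0.46 to 0.28), and not every array correlated best with its own number. The highest value, 0.57, was that of the arrays numbered 4, which also had the lowest medians (7.02 log2 in wild type, 7.06 log2 in Nova2 KO). The main fit left the numbers out, and whether same-numbered arrays share anything more was not tested. Those exon genes numbered 0 to 7 with single arrays left out and 0 without both arrays numbered 4. Some signs turned. The Nova2 gene value was 0.053 log2 without both arrays numbered 4, 0.16 log2 within low Xist, and -0.10 to 0.026 log2 with single arrays left out. Nova1 4805971 was at -0.082 log2 without both arrays numbered 4. With single arrays left out, Nova1 4805971 ran from -0.15 to 0.31 log2 and 4429841 from -0.025 to 0.17, and Nova2 4541872 from -0.30 to 0.27, 4686668 from -0.039 (without wild type 3) to 0.60, 5031892 from -0.28 to 0.039, 5325949 from -0.16 to 0.036, 5329476 from -0.054 to 0.21 and 5424796 from -0.026 to 0.17. The cause was not tested. The split by Xist was chosen after seeing the data and was run for both Nova genes (counts, gene values, contrast and the 3 Nova2 probe sets whose groups do not overlap), not for the gene lists. With an array median or Xist covariate the contrast was not run.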
